A study of Homo sapiens with 8 samples.

Results

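FLI1 binding near the BCL2 family of apoptosis genes was examined in peak lists from FLI1 ChIP-Seq of 2 established cell lines, OCI-Ly1 and VAL, of germinal center B-cell (GCB) diffuse large B-cell lymphoma (DLBCL). The family is described through 10 genes, chosen by name among 20136 protein coding genes: the inhibitors of cell death BCL2, BCL2L1, MCL1 and BCL2A1, the pore-forming effectors BAX and BAK1, and the BH3-only genes BCL2L11, BBC3, PMAIP1 and BID. The labels give neither line a treatment, FLI1 was pulled down with a rabbit polyclonal antibody from chromatin of several parallel precipitations, and each line had 2 FLI1 libraries, rep1 and rep2. The study gives OCI-Ly1 a BCL2 translocation and VAL a BCL2 and a MYC translocation, so that each line stands for its own rearranged genome and not for GCB DLBCL in general. No library had a treatment, so every comparison is between libraries or lines and none was tested.

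BCL2 family proteins decide whether the outer mitochondrial membrane is opened during apoptosis. BAX and BAK1 form the pores, BCL2 and its relatives hold them in check, and BH3-only proteins carry death signals by binding the inhibitors or the effectors. BCL2 itself is switched off in normal germinal center B cells and is joined to an immunoglobulin gene by translocation in many germinal center lymphomas. FLI1 is a transcription factor of the ETS family, whose members bind DNA around the core GGAA.

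For each gene the promoter was taken as 3 kb on either side of any transcription start site (TSS) of the GENCODE annotation of GRCh37, and the best promoter peak was the one with the highest -log10 q among the peaks centred there. The -log10 q is the peak caller's own measure of how far the reads at a summit exceed the local background, and peaks at 3 or more are called passing. The lists hold 1107379 peaks in OCI-Ly1 rep2, 237178 in VAL rep1 and 986629 in VAL rep2, of which 5354, 973 and 6474 passed. Most listed peaks rest on very few reads: the median was 2 reads at the summit in OCI-Ly1 rep2 and VAL rep2, and 4 in VAL rep1. At least 6 reads were needed to pass in OCI-Ly1 rep2 and VAL rep2, and at least 8 in VAL rep1. OCI-Ly1 rep1 listed 37 intervals, 33 of them over 1 Mb, and was not used for sites, so OCI-Ly1 rests on 1 library. Reads are given with exact Poisson 95% intervals, which cover counting error only.

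The sequences around the summits on which the results turn are printed first, read from the GRCh37 genome on the strand of each gene. Capitals mark CCGGAAG where that longer ETS motif was found within 50 bp of a summit, and otherwise the GGAA core, which reads TTCC on the opposite strand. The sites of BCL2L1 (chr20:30311739-30311768, minus strand) and MCL1 (chr1:150552186-150552215, minus strand) are shown because these 2 best promoter peaks, both of OCI-Ly1 rep2, held the longer motif and no other did.
BCL2L1: ttgccgcggcaCCGGAAGtgactgagcttg
MCL1, OCI-Ly1: tgcgcaaccctCCGGAAGctgccgcccctt
The sites of MCL1 (chr1:150552157-150552186, minus), BAK1 (chr6:33548027-33548056, minus), BBC3 (chr19:47729695-47729795, minus) and BCL2 (chr18:60805461-60805490, minus) are shown because they lie within 50 bp of the 4 summits that passed in VAL rep2.
MCL1, VAL: TTCCccttttatgGGAAtactttttttaaa
BAK1: gccacagagcaacTTCCtctagagggagct
BBC3: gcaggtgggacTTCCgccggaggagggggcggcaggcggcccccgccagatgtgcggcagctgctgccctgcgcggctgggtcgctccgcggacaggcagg
BCL2: aaaaagtcctcacTTCCttgcgtgtgctct
The sites of BID (chr22:18260026-18260055, minus), which passed in OCI-Ly1, and BAX (chr19:49458442-49458471, plus), which had its best peak at 1 place in every library without passing, complete the set.
BID: gagcccggtggcaGGAAgtgacagtgagaa
BAX: accaggggatctcGGAAgccaagcccccgg

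FLI1 peaks passed at the promoters of 6 of the 10 genes, and no gene passed in both lines. In OCI-Ly1 rep2 the genes were BCL2L1 and BID, 2 of 10 where 19.0% of all protein coding genes had a passing promoter peak. In VAL rep2 they were BCL2, MCL1, BAK1 and BBC3, 4 of 10 against 20.9% of all genes. In VAL rep1 none of the 10 passed, against 3.14% of all genes. The calls therefore came from 1 library in each line, and without VAL rep2 the number passing in either line was 2. Over both lines, 27.4% of all genes passed in at least 1 line and 12.6% in both. By role, 3 of 4 inhibitors, 1 of 2 effectors and 2 of 4 BH3-only genes passed in either line. Counting only TSS of protein coding transcripts left MCL1 and BAK1 in VAL rep2. At a -log10 q of 2 or more, MCL1 and BBC3 passed in both lines. At that threshold 29.5% of all genes passed in OCI-Ly1 rep2 and 33.4% in VAL rep2, and the share in both lines was not computed. The BBC3 peaks lay at different places, 1047 bp upstream of the MANE Select TSS in OCI-Ly1 rep2 and 4711 bp downstream in VAL rep2.

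The lack of shared genes can be read beside the same overlap for all genes. Of all genes that passed in VAL rep2, 60.1% also passed in OCI-Ly1 rep2, against 0 of the 4 family members. Of all genes that passed in OCI-Ly1 rep2, 66.4% also passed in VAL, against 0 of the 2 members. The VAL replicates shared fewer calls throughout, since 14.1% of the genes that passed in rep2 also passed in rep1, against 0 of 4 members. With 4 and 2 genes these shares are descriptions and were not tested.

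**Figure D1:**
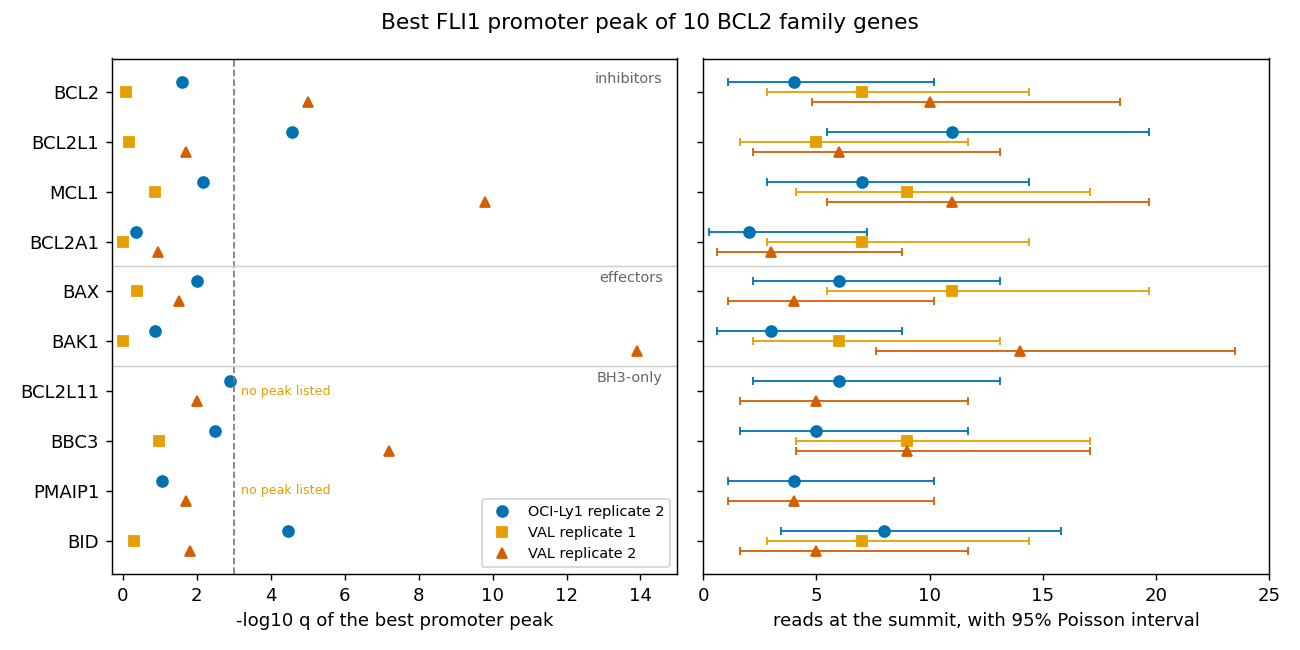
The left panel plots the -log10 q of the best promoter peak (dashed line at 3) and the right panel the reads at its summit with exact Poisson 95% intervals, for 10 genes in 3 libraries. Passing peaks reach from 4.46 at BID to 13.9 at BAK1, each in a single library. The read intervals of each library's own best peak overlap for each of the 10 genes, but these peaks often lie at different places. At the BAK1 summit of VAL rep2, with 14 reads, OCI-Ly1 rep2 listed 2 reads and VAL rep1 no overlapping peak.

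Among the inhibitors, MCL1, a short-lived protein on which B cells depend, had the strongest peak. Its best promoter peak had a -log10 q of 2.18 in OCI-Ly1 rep2, 0.878 in VAL rep1 and 9.80 in VAL rep2. The summits held 7, 9 and 11 reads, with 95% intervals that overlap, while the local background was 0.819, 2.01 and 0.359 reads. The VAL rep2 peak (chr1:150551335-150552496, fold enrichment 8.83) spanned the TSS of the MANE Select transcript, the representative transcript of the gene, and had its summit 54 bp upstream. The summits of OCI-Ly1 rep2 and VAL rep1 lay 88 and 31 bp upstream of that TSS. The gene ENSG00000290074 also has a TSS within 3 kb of these peaks. MCL1 thus had a listed peak over the same start in all 3 libraries, of which 1 passed.

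BCL2, the founding inhibitor of the family, passed in VAL rep2 at a place far from its main promoter. Its best peak had a -log10 q of 1.61 in OCI-Ly1 rep2, 0.0738 in VAL rep1 and 5.0 in VAL rep2. The passing peak (chr18:60805368-60805660) held 10 reads (95% interval 4.80 to 18.4) over a background of 0.807, a fold of 6.09. It lay 164 bp from the TSS of a transcript without a defined coding sequence and 181522 bp downstream of the MANE Select TSS, inside the gene. OCI-Ly1 rep2 listed a peak of 4 reads with its summit 93 bp from this one, and VAL rep1 listed none that overlapped it. Within 3 kb of the MANE Select TSS itself, the best BCL2 peak had a -log10 q of 1.61 in OCI-Ly1 rep2 and 1.89 in VAL rep2, and VAL rep1 listed none.

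BCL2L1, which encodes the inhibitor BCL-XL, passed in OCI-Ly1. Its best peaks had a -log10 q of 4.58 in OCI-Ly1 rep2, 0.155 in VAL rep1 and 1.71 in VAL rep2. The passing peak (chr20:30310511-30311869) held 11 reads (5.49 to 19.7) over a background of 1.13, with its summit 1099 bp upstream of the MANE Select TSS, in the UTR of another BCL2L1 transcript. VAL rep2 listed a peak of 6 reads whose summit lay 336 bp away, and VAL rep1 listed none that overlapped. The antisense gene ABALON has a TSS within 3 kb of the same peak, and peaks carry no strand.

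BCL2A1, an inhibitor induced by NF-κB in B cells, had the lowest best peak of the 10 genes in OCI-Ly1 rep2 and VAL rep2. Its best peak had a -log10 q of 0.344 in OCI-Ly1 rep2, 0.0 in VAL rep1 and 0.952 in VAL rep2, with 2, 7 and 3 reads. All 3 summits were upstream of the TSS, between 845 and 2065 bp away, and did not coincide. In the same libraries 94.6%, 74.9% and 80.4% of all protein coding genes had a best promoter peak at least as strong.

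The effectors BAX and BAK1 are close in function, and their peaks differed in pattern. BAK1 had the strongest peak of the 10 genes, with a -log10 q of 0.873 in OCI-Ly1 rep2, 0.0 in VAL rep1 and 13.9 in VAL rep2. The VAL rep2 peak (chr6:33547134-33548681) held 14 reads (7.65 to 23.5) over a background of 0.385, a fold of 10.8, and its summit lay 24 bp upstream of the MANE Select TSS. At that summit OCI-Ly1 rep2 listed 2 reads with a -log10 q of 0.285, and VAL rep1 listed no overlapping peak. The peak also lies in an intron of GGNBP1. BAK1 was thus the member at which 1 library stood furthest from the other two.

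BAX passed in no library, but its best peaks fell on 1 place. Their -log10 q was 2.0 in OCI-Ly1 rep2, 0.382 in VAL rep1 and 1.51 in VAL rep2, with 6, 11 and 4 reads. The 3 summits lay 302, 314 and 346 bp downstream of the MANE Select TSS, a span of 44 bp. MCL1 was the other gene whose summits coincided within 100 bp, over a span of 57 bp. Among 14910 genes with a listed promoter peak in all 3 libraries, 10.2% had best summits within 100 bp of each other. Among the 10173 of these with no passing promoter peak, as for BAX, the share was 1.0%. That share does not apply to MCL1, which passed, and the share among passing genes is not given here. Of the 10 members, 8 had a listed promoter peak in all 3 libraries.

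Of the BH3-only genes, BBC3 (PUMA), a target of p53, passed in VAL rep2. Its best peaks had a -log10 q of 2.50 in OCI-Ly1 rep2, 0.980 in VAL rep1 and 7.19 in VAL rep2, with 5, 9 and 9 reads. The passing peak (chr19:47729189-47730045, fold 7.45) had its summit in an intron, 4711 bp downstream of the MANE Select TSS and 701 bp from the TSS of a transcript with a retained intron. A TSS of MIR3191 lay closer to the peak's centre than any BBC3 TSS. The best peaks of the other libraries were elsewhere, 4025 bp downstream of the MANE Select TSS in VAL rep1 and 1047 bp upstream in OCI-Ly1 rep2. Within 3 kb of the MANE Select TSS, the best BBC3 peak of VAL rep2 had a -log10 q of 1.17.

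BID, which links death receptors to mitochondria after cleavage by caspase-8, passed in OCI-Ly1 rep2 at the edge of its promoter window. Its best peaks had a -log10 q of 4.46 in OCI-Ly1 rep2, 0.307 in VAL rep1 and 1.82 in VAL rep2. The passing peak (chr22:18259918-18260145) held 8 reads (3.45 to 15.8), a fold of 5.95, and its summit lay 2816 bp upstream of the MANE Select TSS. A TSS of the non-coding gene LINC00528 lay closer to the peak's centre than any BID TSS. The overlapping peak of VAL rep2 had 2 reads and a -log10 q of 0.435.

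BCL2L11 (BIM) and PMAIP1 (NOXA) passed nowhere. BCL2L11, a BH3-only gene needed to delete self-reactive lymphocytes, came closest to the threshold from below, with a -log10 q of 2.89 and 6 reads in OCI-Ly1 rep2 and 2.0 and 5 reads in VAL rep2. PMAIP1, whose product counters MCL1, had a -log10 q of 1.07 and 1.71 in those libraries with 4 reads in each. VAL rep1 listed no promoter peak for either gene. BID at 4.46 and BCL2L1 at 4.58 were the members just inside the threshold, and BCL2L11 at 2.89 and BBC3 at 2.50, all in OCI-Ly1 rep2, were those just outside it.

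**Figure D2:**
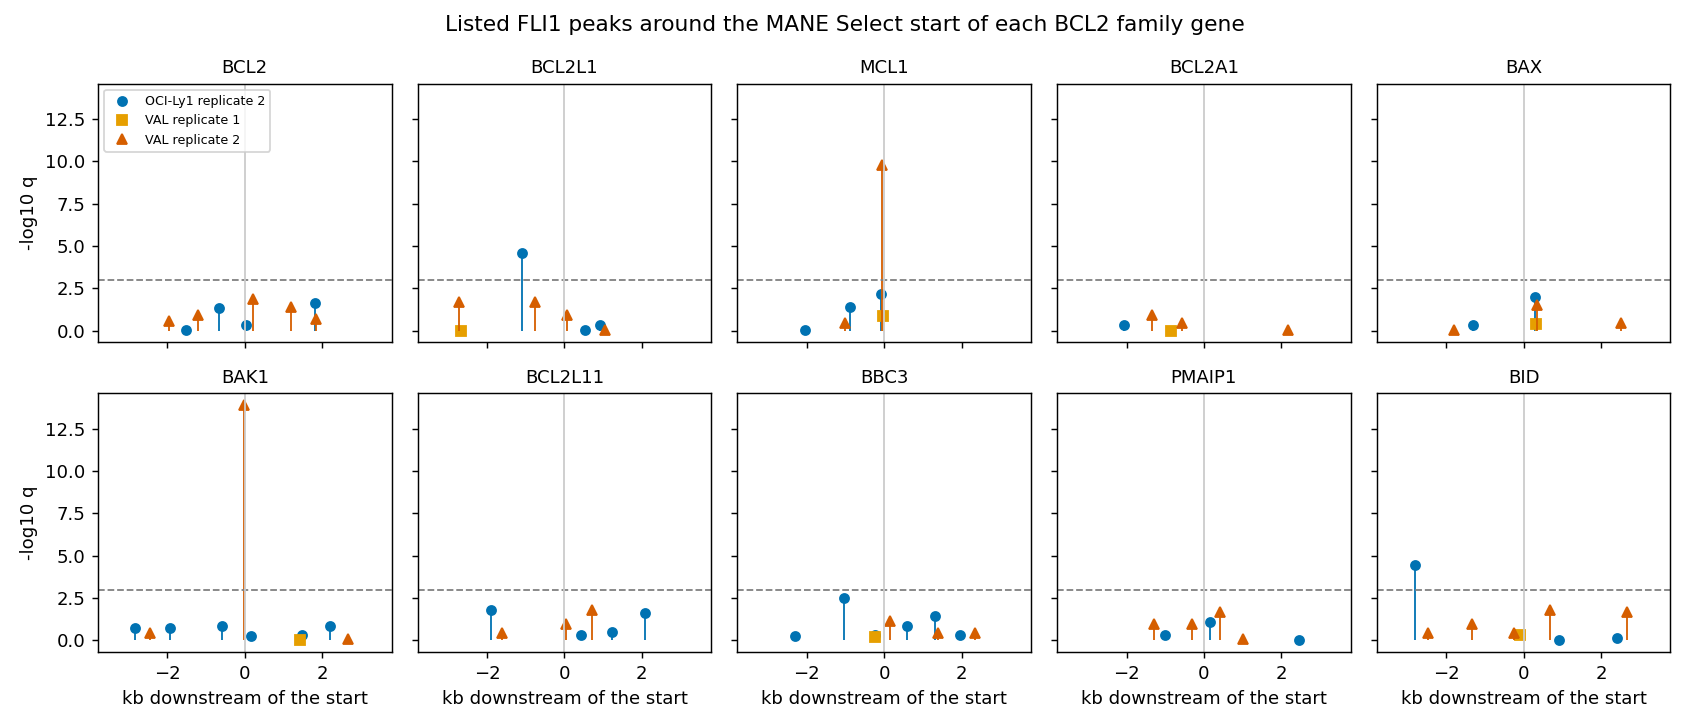
Each panel plots all listed FLI1 peaks within 3 kb of the MANE Select TSS of 1 gene by distance of the summit downstream of the TSS in kb and by -log10 q, with the threshold of 3 dashed. MCL1 and BAK1 pass at the TSS in VAL rep2 and BCL2L1 and BID pass upstream of it in OCI-Ly1 rep2, while BCL2 and BBC3 have no passing peak in these windows.

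Passing members lie in the upper part of the range of all protein coding genes by construction. The threshold was reached by 19.0% of all genes in OCI-Ly1 rep2 and 20.9% in VAL rep2. In VAL rep2, 3.25% of all genes had a best promoter peak at least as strong as BAK1, 5.43% as strong as MCL1, 8.24% as strong as BBC3 and 12.2% as strong as BCL2. In OCI-Ly1 rep2 the share was 13.1% for BCL2L1 and 13.6% for BID. Genes with more TSS have wider promoter windows and so more peaks to choose from. The windows ran from 6.02 kb at BAK1 to 16.2 kb at BBC3 and 23.1 kb at BCL2, and these values were not adjusted for width. The median best -log10 q of the 10 genes was 2.09 in OCI-Ly1 rep2 and 1.91 in VAL rep2, where the median of all genes with a listed promoter peak was 1.22 and 1.67. In VAL rep1 the median was 0.231 over the 8 members and 0.285 over the 15084 genes with a listed promoter peak.

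**Figure D3:**
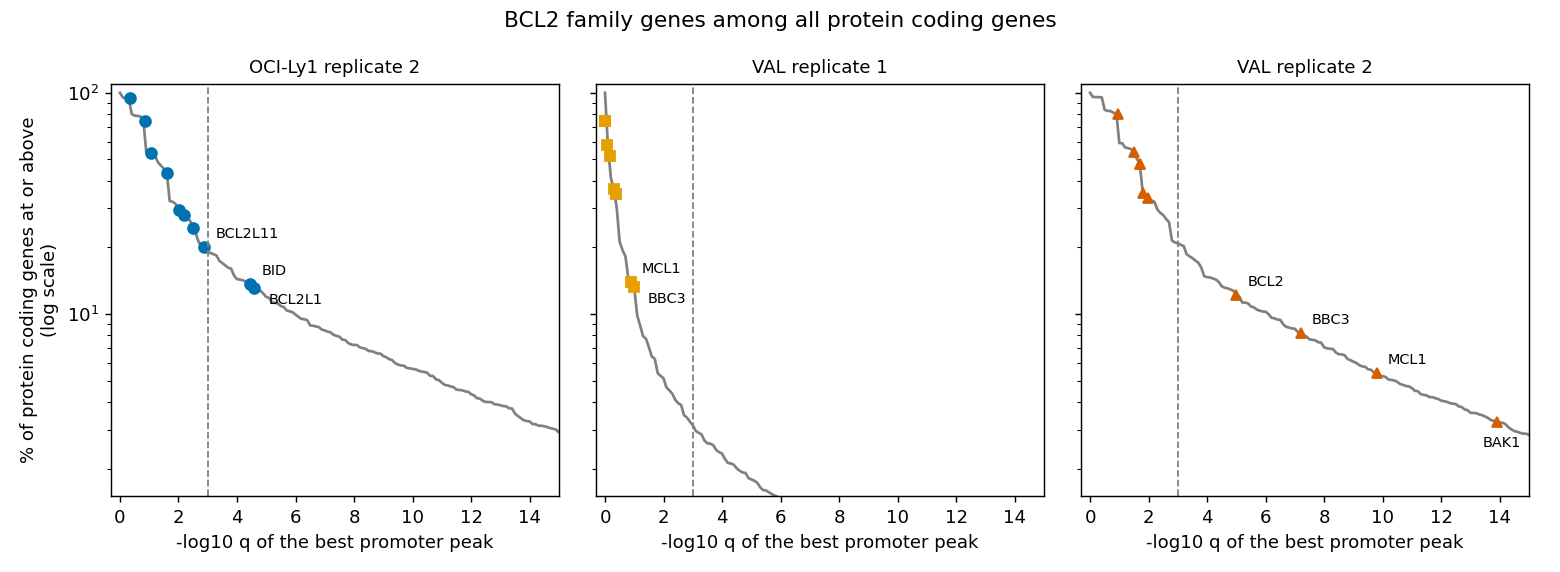
The curve gives the percentage of protein coding genes (log axis) whose best promoter peak reaches a -log10 q or more, for each library, and the symbols are the BCL2 family genes, with the threshold of 3 dashed. BAK1, at 3.25% of all genes in VAL rep2, is the member highest on its curve.

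Within the gene bodies, FLI1 peaks added no site beyond the promoter windows. A passing peak lay inside BCL2L1 in OCI-Ly1 rep2, where 15.9% of all genes had one, and inside BCL2, MCL1, BAK1 and BBC3 in VAL rep2, where 18.8% had one. No member had one in VAL rep1, against 2.59% of all genes. These 5 peaks, 1 without VAL rep2, were the promoter peaks described above. Farther than 3 kb from every TSS, the strongest peak inside a member was at MCL1 in VAL rep2, with a -log10 q of 2.53. In BCL2, the longest of the genes at 197 kb, such peaks reached 1.61 in OCI-Ly1 rep2, 0.569 in VAL rep1 and 1.69 in VAL rep2.

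ETS proteins prefer a longer motif than the GGAA core. CCGGAAA or CCGGAAG, searched on both strands within 50 bp of the summit, occurred at 1 of 6 passing member peaks. That peak was BCL2L1 in OCI-Ly1 rep2, with the CCGGAAG printed above centred 16 bp from the summit. Over all passing best promoter peaks the motif occurred at 50.4% in OCI-Ly1 rep2, 61.9% in VAL rep1 and 43.9% in VAL rep2, and at 5.48%, 6.60% and 5.06% of those that did not pass. The members of VAL rep2 thus stood without the longer motif, 0 of 4. The difference was not tested, and the search finds letters and not bound sites.

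At MCL1 the CCGGAAG lay 27 bp from the OCI-Ly1 rep2 summit, 61 bp from the VAL rep2 summit and 84 bp from the VAL rep1 summit, so that within 100 bp of the summit 2 of 6 passing peaks held the motif. The share of all passing peaks with the motif within 100 bp was not computed. The shorter GGAA, which is part of both longer forms, occurred at 6 of 6 passing member peaks. It occurred at 89.2% of all passing best promoter peaks in OCI-Ly1 rep2 and 87.6% in VAL rep2, and at 59.6% and 57.9% of those that did not pass. In RefSeq promoter sequences of GRCh38.p14, from 250 bases before to 50 after the gene start, 9 of the 10 genes, all but MCL1, were matched. Of these 1, BCL2L1, held the longer motif, in 1 of its promoters and not in another. Over all genes 13.4% of 35116 promoters held it. The member count is of genes, of which BCL2L1 and BID had several promoters, so it cannot be set directly against that share.

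The local background under the peaks changed at the 3′ end of BCL2 in VAL, a feature singled out after the values were seen. In VAL rep2 the median background of the listed peaks was 0.287 reads in the 200 kb beyond the 3′ end (76 peaks, quartiles 0.278 and 0.340), 0.717 inside the gene (66 peaks, quartiles 0.637 and 0.807) and 0.636 in the 200 kb beyond the 5′ end (59 peaks). The library's median was 0.278, so the gene and its 5′ side were raised and its 3′ side was not. Within 50 kb of the 3′ end, 17 of 17 peaks on the side of the gene had a background of at least 0.5 and 1 of 21 on the other side. The last peak before the gene, 6.72 kb from its 3′ end, had a background of 0.309, and the first one inside, 4.43 kb from the 3′ end, had 0.550. The change is placed no more closely than between these peaks, and the peak next farther out, also beyond the 3′ end, had 0.628. OCI-Ly1 rep2 had single raised values at this end too, 0.615 at the last peak before the gene and 0.819 at the first inside. VAL rep1 showed the same side higher, with medians of 1.17 beyond the 3′ end (26 peaks), 2.01 inside BCL2 (17 peaks) and 2.26 beyond the 5′ end (24 peaks). In OCI-Ly1 rep2 the medians were 0.295, 0.283 and 0.307, close to that library's 0.295. The most common background in the lists was 0.283 reads in OCI-Ly1 rep2 and 0.278 in VAL rep2, and no median here lay below it. A fall below these values may therefore not show. The 70.3 kb of BCL2 without a listed peak in OCI-Ly1 rep2 carry no value.

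**Figure D4:**
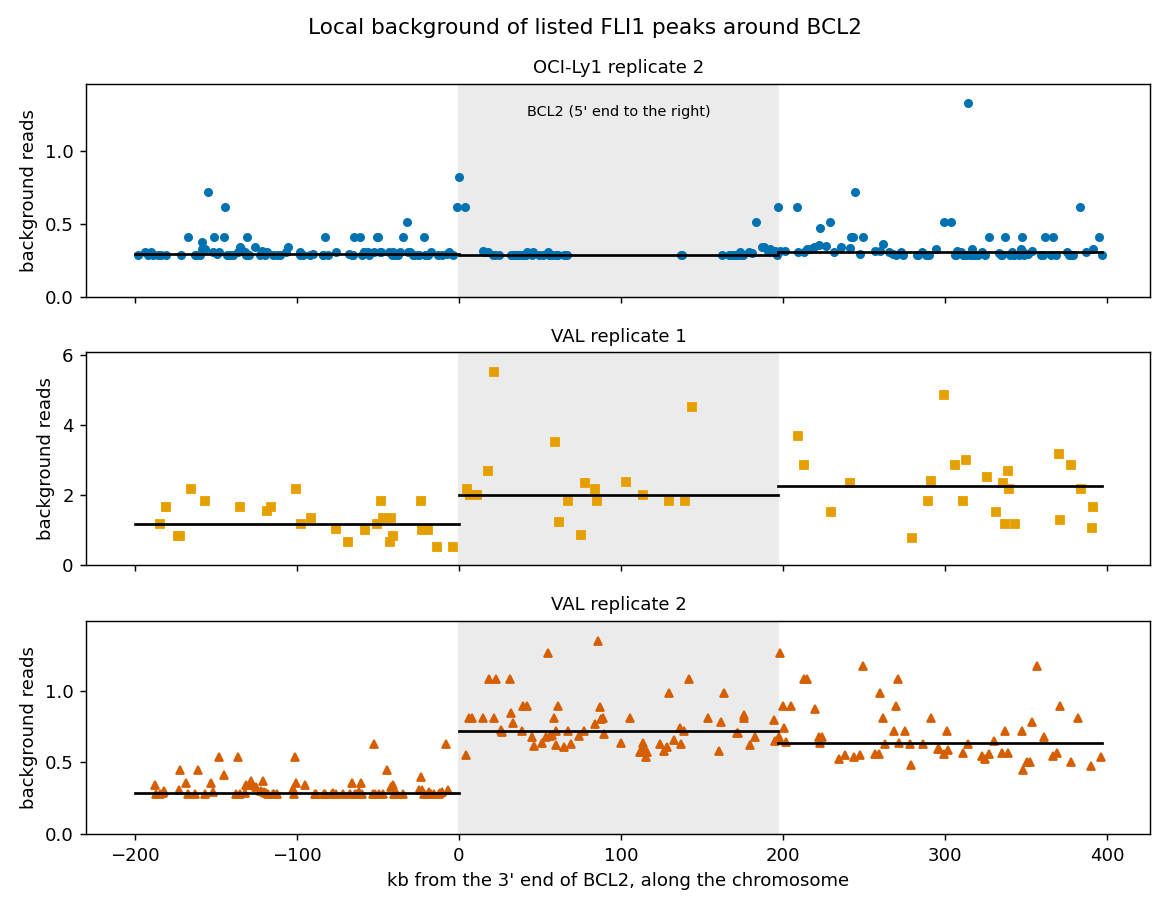
Each point is 1 listed FLI1 peak, plotted by distance from the 3′ end of BCL2 along the chromosome in kb and by the inferred background reads at its summit. The gene is shaded and black lines are medians, and the VAL rep2 median rises from 0.287 to 0.717 reads at the 3′ end while OCI-Ly1 rep2 stays near 0.295 and lists no peak over 70.3 kb of the gene.

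The raised background of VAL rep2 reached far past BCL2. In bins of 250 kb over 10 Mb on either side of the MANE Select TSS, the 41 bins from BCL2 to higher coordinates had between 1.27 and 2.43 times the library's median background, with 23 at 1.5 times or more, and the 39 bins below had between 1.0 and 1.14 times. VAL rep1, with fewer listed peaks, had a median ratio of 1.29 over the upper bins (range 0.786 to 2.0) and 0.857 over the lower ones (0.449 to 1.14). The median was 0.959 on both sides in OCI-Ly1 rep2, where no bin exceeded 1.06. The lowest ratios, 0.959 in OCI-Ly1 rep2 and 1.0 in VAL rep2, are those of each library's most common background, so a lower level may not show. The step was thus seen in both VAL libraries and not in that of OCI-Ly1. In VAL rep2 the median background within 100 kb of the gene was 2.17 times that of all genes for BCL2, a value that 0.358% of all genes reached, and between 1.05 and 1.17 times for the other members. In VAL rep1 BCL2 did not stand apart by this measure, at 1.38 times beside 1.38 for BAX and 1.45 for BBC3. The passing BCL2 peak lies on the raised side, and the part of the raised background in it was not tested. Copy number was not measured here, and the part of the BCL2 translocation or of copy number in the step was not tested.

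OCI-Ly1 rep2 had a feature of its own in BCL2, also singled out afterwards, a stretch of 70.3 kb without a listed peak (chr18:60857369-60927716), although single reads were enough to be listed elsewhere. The stretch lies 66.8 kb from the 3′ end, holds no annotated BCL2 exon, and contains 24 listed peaks in VAL rep2 and 8 in VAL rep1. The longest such stretch inside BCL2 was 11.9 kb in VAL rep2 and 37.3 kb in VAL rep1, whose list is the shortest of the 3. Over the genome OCI-Ly1 rep2 had 98 stretches at least as long between neighbouring listed peaks, of which 14 held no unknown base of the assembly. Of these, 13 were autosomal. In VAL rep2, 9 of the 13, BCL2 included, held at least the 34.1 listed peaks per 100 kb of the BCL2 stretch. Listed peaks of VAL rep2 in such a stretch were thus not particular to BCL2. What lies behind this stretch was not tested.

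Genes around the family were described through 3 lists, and their shares were near the 27.4% of all genes with a passing promoter peak in either line, apart from the shortest list. Among 13 other BCL2 family genes, 4 passed in either line (30.8%), BAD and BCL2L13 in both lines, BCL2L12 in OCI-Ly1 and BMF in VAL. BAD, a BH3-only gene controlled by growth factor signals, was the one gene of these lists to pass in all 3 libraries, with a -log10 q of 25.5, 7.89 and 6.94 and 25, 22 and 10 reads. Its summits lay between 1768 and 1872 bp from the nearest BAD TSS and between 26 and 66 bp from a TSS of GPR137. BCL2L13, a relative found on mitochondria, had a -log10 q of 5.19 in OCI-Ly1 rep2, 0.495 in VAL rep1 and 8.25 in VAL rep2, with the passing summits 72 and 47 bp from its own TSS. The passing summit of BCL2L12 lay 67 bp from a TSS of IRF3 and 486 bp from its own.

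Of 15 apoptosome and caspase genes, 4 passed in either line (26.7%). HTRA2, a protease released from mitochondria, had a -log10 q of 5.45 in OCI-Ly1 rep2 and 6.02 in VAL rep2 with 10 reads in each, at a start shared with AUP1. BIRC6, a large inhibitor of apoptosis that carries ubiquitin ligase activity, had 4.69, 1.01 and 5.58 in the 3 libraries. CASP9, the caspase of the apoptosome, passed in OCI-Ly1 rep2 alone at 3.10, and BIRC2 passed in VAL rep2 alone at 3.27. The summit at CASP9 lay 37 bp from a TSS of DNAJC16 and 351 bp from its own. That at BIRC2 lay 69 bp from a TSS of ENSG00000288833 and 70 bp from its own.

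Of 3 genes that control the turnover of MCL1 protein, 2 passed in either line (66.7%), and 1 without VAL rep2. FBXW7, which marks MCL1 for degradation, passed in both lines with a -log10 q of 12.8 in OCI-Ly1 rep2 and 3.27 in VAL rep2, and had 0.0 in VAL rep1. Its passing summits lay 138 and 69 bp from its own TSS and 34 and 103 bp from a TSS of MIR4453HG. USP9X, which removes ubiquitin from MCL1, had 2.62 in OCI-Ly1 rep2, 0.653 in VAL rep1 and 8.75 in VAL rep2. HUWE1, a further ligase for MCL1, stayed below 1 in every library. In all, 5 of these 31 genes passed in both lines, beside 12.6% of all genes.

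**Figure D5:**
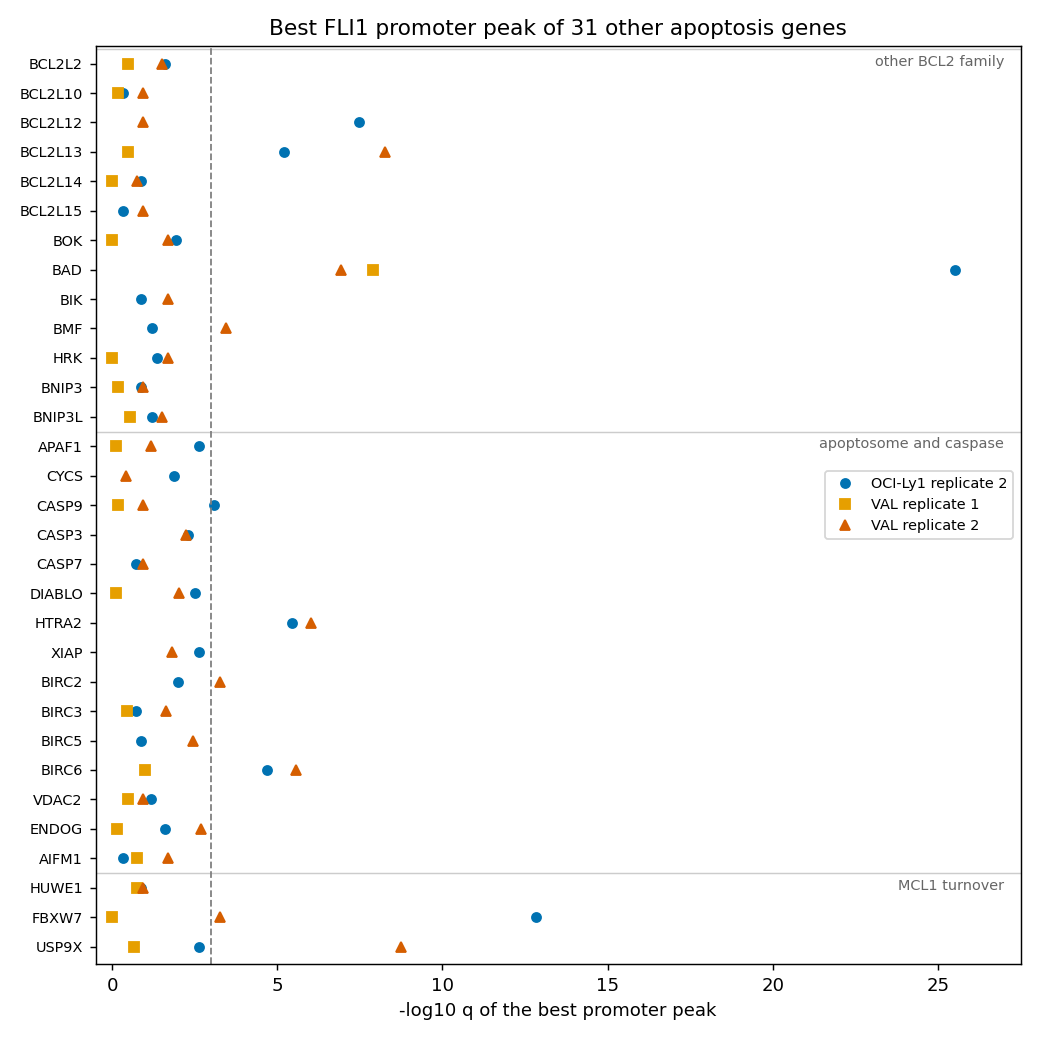
The plot gives the -log10 q of the best promoter peak of 31 other apoptosis genes in 3 libraries, with lists separated by lines and the threshold of 3 dashed. BAD passes in all 3 libraries, and BCL2L13, HTRA2, BIRC6 and FBXW7 pass in OCI-Ly1 rep2 and VAL rep2.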

How the data were processed

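The FLI1 ChIP-Seq peak lists of replicate 2 of OCI-Ly1 (rep2) and replicates 1 and 2 of VAL (rep1, rep2) were used, 1 list per library. The 4 samples of input DNA were not analysed here. Per the methods, reads were mapped to GRCh37 with bowtie2 and filtered with SAMtools, and peaks were called with HOMER at an FDR of 0.001, whereas the labels' processing notes name BWA and CASAVA 1.4. The lists have the form that MACS2 writes, and the caller, control and settings behind them are not given in the sources used here.

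The authors deposited for each peak a fold enrichment, which is a linear ratio of pileup to local background, a -log10 p and a -log10 q, and an integer score left unused here. A peak passed at a -log10 q of 3 or more (q of 0.001). The fold, (reads + 1) / (background + 1), and the Poisson p-value were solved for the summit reads and their background, with a solution for 99.9933% of peaks or more in every library. Library totals were not used, so depth is known only through these reads. The values are not scaled between libraries and were ranked within each.

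TSS, genes and MANE Select transcripts came from GENCODE release 44 on GRCh37, and genes were matched by symbol on the autosomes, X and Y. The background was every protein coding gene (20136). No test was run. The text names the 10 members and every gene of the 3 lists that passed in a library. The members and lists were chosen with earlier results of these data known. The reads of 4995 of 5000 simulated peaks were recovered, and planted promoters, overlaps and motifs were found in all cases. The alternatives covered the threshold, a minimum fold, the promoter definition, the libraries left out, and the motif and its window. Software was samtools 1.23.1, pysam 0.24.0, matplotlib 3.10.9, scipy 1.17.1, pandas 2.3.3 and numpy 2.4.6 under python 3.11.15.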

Additional observations from a re-analysis of the deposited data

How the results depend on the processing

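Of 98 alternatives, 80 left a count within 1.5 times its value and 18 moved it. At a -log10 q of at least 2, 6 members passed in OCI-Ly1 rep2 (BCL2L1, MCL1, BCL2L11, BAX, BBC3 and BID), where 29.5% of all genes did. In VAL rep2 4 members passed, against 33.4% of all genes. The 2 that passed in both lines were MCL1 and BBC3, the latter through peaks at different places. Passing peaks inside members rose to 10, and apoptosome and caspase genes in either line to 10. At 5 or more, 0 members passed in OCI-Ly1 rep2, against 11.9% of all genes, and 2 apoptosome and caspase genes in either line. BCL2, MCL1, BAK1 and BBC3 still passed in VAL rep2, against 12.2% of all genes. Within 1 kb of a TSS 1 member (BCL2L1) passed in OCI-Ly1 rep2. With TSS of protein coding transcripts only, 2 (MCL1 and BAK1) passed in VAL rep2, and likewise 2 with the MANE Select TSS only, a setting added after seeing the data. With the closest TSS only, 1 member passed in OCI-Ly1 rep2 (BCL2L1, without BID) and 3 in VAL rep2 (BCL2, MCL1 and BAK1, without BBC3). In either line 2 other BCL2 family genes and 2 apoptosome and caspase genes then passed. Shares of all genes under these other promoter definitions were not computed. Leaving out 1 library at a time gave 2 to 6 members in either line, 1 to 5 peaks inside members and 1 to 2 MCL1 turnover genes, each lowest without VAL rep2. GGAA occurred at 6 passing peaks, the longer motif within 100 bp at 2, and best summits within 50 bp, an added setting, at 1 member (BAX). Shares over all genes for the last 2 settings were not computed. The causes were not tested, beyond what each setting changes by construction. No paired analysis was possible because no result comes from a test. Reads per summit limit what could pass: fewer than 6 reads never passed in OCI-Ly1 rep2 or VAL rep2, and fewer than 8 never in VAL rep1.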

Other observations

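Passing FLI1 peaks outside the promoters and bodies of the 10 genes, but within 100 kb of them, were in several places common to both lines. Near BBC3, a peak 11.6 kb from the gene, over an exon of the non-coding gene ENSG00000289915, had a -log10 q of 5.62 in OCI-Ly1 rep2 and 22.0 in VAL rep2, with 9 and 18 reads. A peak at CCDC9, about 23.6 kb from BBC3, passed in all 3 libraries, with 15.4 in OCI-Ly1 rep2, 3.50 in VAL rep1 and 17.5 in VAL rep2. Around BCL2A1, whose own promoter passed in no library, peaks at MTHFS, ST20 and ZFAND6 passed in both OCI-Ly1 rep2 (3.38, 3.50 and 5.19) and VAL rep2 (3.47, 3.27 and 4.33). Near BCL2L1, a peak at HM13-AS1, about 91.4 kb away, had 3.89 in OCI-Ly1 rep2 and 6.35 in VAL rep2. The BCL2L13 promoter lies about 95.4 kb from BID, and its peak passed at 5.19 in OCI-Ly1 rep2 and 8.25 in VAL rep2. Which genes these peaks act on was not measured.

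Other peaks within 100 kb passed in a single library. OCI-Ly1 rep2 had a passing peak 0.706 kb beyond the end of BAX, towards FTL, with a -log10 q of 3.04, and one 0.927 kb beyond the end of BAK1, in an intron of GGNBP1, with 3.39. For BCL2, VAL rep2 had a peak in KDSR at 3.87, 17.6 kb away and on the side of raised background, and OCI-Ly1 rep2 one in an intron of VPS4B at 3.82. PMAIP1 had intergenic peaks in OCI-Ly1 rep2 (3.46, 38.5 kb away) and VAL rep2 (3.51, 43.0 kb away) at different places. For MCL1, VAL rep2 had peaks at ADAMTSL4 (3.87, 5.34 kb away) and in an intron of RPRD2 (3.67, 96.6 kb away). Farther from BAX, OCI-Ly1 rep2 had a peak near LHB (5.19, 58.0 kb away) and VAL rep2 one near PPP1R15A (3.44, 82.8 kb away). For BBC3, VAL rep2 also had one at SAE1 (3.84, 89.8 kb away). BCL2L11 had none within 100 kb, and its nearest passing peaks were 244 kb away in OCI-Ly1 rep2, 338 kb in VAL rep1 and 491 kb in VAL rep2.

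In the list of OCI-Ly1 rep1, which gave no sites, all 10 members lay within some interval. The 1 interval that passed, with a -log10 q of 3.57, a fold of 3.0 and 2 reads, runs from 1 to 243041133 on chromosome 2 and so covers BCL2L11 together with nearly all other genes of that chromosome.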
